A study of Homo sapiens with 12 samples.

Results

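The 10 genes described here belong to the lysosomal branch of mTORC1 signalling and were followed across 12 RNA-seq libraries of HOS cells. They are the Rag GTPase genes RRAGA, RRAGC and RRAGD, the folliculin complex genes FLCN, FNIP1 and FNIP2, the MiT/TFE transcription factor genes TFEB, TFE3 and MITF, and the autophagy receptor gene SQSTM1. All 10 were found by their Ensembl identifiers among the 25141 genes of the count table. The list was drawn up around RRAGD with earlier results of these libraries known, and RRAGD was chosen from its values in siCIN85 versus siNeg. The levels in that comparison are therefore given as a description, without P-values for the 10 genes. Calls of these genes there describe the list and do not test it.

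HOS is a human osteosarcoma cell line. The study altered CIN85, an adaptor protein encoded by SH3KBP1, in both directions and asked which transcripts follow. Overexpressing cells (upCIN85) were kept as a pool resistant to geneticin after transfection with a vector that encodes the long CIN85 form, driven by a viral promoter as the vector name pRc/CMV2 states. Their control (Mock) had the vector without insert. Knockdown (siCIN85) used 3 siRNAs mixed together, and its control (siNeg) a siRNA without a target. Each of these 4 groups has 3 libraries, and the labels do not say whether the 3 came from separate cultures. The study's methods speak of biological replicates in general, without naming the sequenced libraries, so P-values measure the spread between these libraries only.

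Rag GTPases work as pairs, with RagA or RagB bound to RagC or RagD, and recruit mTORC1 to the lysosomal membrane when amino acids are plentiful. Folliculin together with its partners FNIP1 and FNIP2 acts on RagC or RagD, the partner that presents TFEB, TFE3 and MITF to mTORC1. Phosphorylated by mTORC1, these factors stay in the cytoplasm, and when released they enter the nucleus and switch on lysosomal and autophagy genes. RRAGD, FLCN, FNIP1, FNIP2 and SQSTM1 are themselves known targets of MiT/TFE factors, which bind CACGTG letters in promoters.

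The promoter sequences are shown because MiT/TFE binding letters can be read from them. RefSeq promoter windows, 250 bases before to 50 bases after a gene start on GRCh38.p14, were at hand for 8 of the 10 genes, and RRAGA and RRAGD had no entry. CACGTG, searched on both strands together with its longer forms TCACGTG and GTCACGTG, which contain it, was found in 2 of the 8, RRAGC and FNIP1. Of all 27305 genes with a window, 8.78% held CACGTG, 4.49% held TCACGTG and 2.93% held GTCACGTG. The windows of RRAGC (chr1:38859723-38860022, minus strand) and FNIP1 (chr5:131796968-131797267, minus strand) are printed 5′ to 3′ along the gene, with the matches in capitals, beside that of FLCN (chr17:17237119-17237418, minus strand), the one gene with a window whose knockdown and control libraries did not overlap.
RRAGC: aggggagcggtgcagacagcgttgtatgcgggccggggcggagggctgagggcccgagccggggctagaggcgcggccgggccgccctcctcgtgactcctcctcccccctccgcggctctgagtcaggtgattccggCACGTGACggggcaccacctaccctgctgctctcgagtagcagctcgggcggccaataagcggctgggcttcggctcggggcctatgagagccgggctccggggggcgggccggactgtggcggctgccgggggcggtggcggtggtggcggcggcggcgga
FNIP1: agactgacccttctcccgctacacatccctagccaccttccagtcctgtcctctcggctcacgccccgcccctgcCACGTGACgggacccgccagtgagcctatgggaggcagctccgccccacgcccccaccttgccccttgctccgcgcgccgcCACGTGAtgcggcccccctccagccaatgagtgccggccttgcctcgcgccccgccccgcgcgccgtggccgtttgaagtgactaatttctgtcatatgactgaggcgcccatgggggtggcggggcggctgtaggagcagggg
FLCN: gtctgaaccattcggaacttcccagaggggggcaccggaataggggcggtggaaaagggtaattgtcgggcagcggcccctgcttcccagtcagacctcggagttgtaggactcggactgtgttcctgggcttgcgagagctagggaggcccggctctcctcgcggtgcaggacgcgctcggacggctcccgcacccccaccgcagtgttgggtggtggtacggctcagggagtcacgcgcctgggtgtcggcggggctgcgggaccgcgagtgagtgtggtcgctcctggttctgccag
In RRAGC the letters read CACGTGAC, which is GTCACGTG on the opposite strand, and CACGTG began 112 bases before the gene start. In FNIP1 CACGTGAC began 175 bases and CACGTGA 94 bases before the start. The FLCN window held none of these letters, nor did the windows of FNIP2, TFEB, TFE3, MITF and SQSTM1. A match is a run of letters and not a measured binding site, and its absence from a 300-base window says only that the letters are not there.

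The knockdown experiment was the shallower, at 3540641 to 4174860 counts per library against 5334731 to 6049458 in Mock and upCIN85. Levels are given as TMM-normalized CPM, the counts of a gene scaled to a library of standard size. They come from tags near the 3′ end of each transcript and are compared between groups for one gene, not between genes. SH3KBP1 was measured at 85.5, 87.2 and 82.6 CPM in siNeg and at 3.88, 8.97 and 9.77 CPM in siCIN85 (log2FC -3.51 ± 0.21 SE, edgeR quasi-likelihood test, adjusted P = 5.09e-08). In upCIN85 it stood at 71.0, 90.0 and 82.8 CPM against 76.6, 82.8 and 73.0 CPM in Mock (log2FC 0.07, adjusted P = 0.887). Whether the plasmid transcript yields 3′ tags within the gene was not tested, so the latter values do not check the upCIN85 label. The study examined CIN85 protein in the resistant pool by western blotting with densitometry, and describes the long form as overexpressed. Of the 5 osteosarcoma and mesenchymal markers, COL1A1, SPARC and VIM each reached at least 337 CPM in every library, while COL1A2 ranged from 18.8 to 212.5 CPM and RUNX2, the osteoblast transcription factor, from 7.23 to 38.8 CPM. The melanocyte markers PMEL, DCT and TYRP1 had at most 8 counts and the blood markers PTPRC and CD3E at most 1. CD68, a lysosomal protein of macrophages, had 15, 3 and 9 counts in siCIN85 and 3, 1 and 3 in siNeg. In Mock and upCIN85 it had at most 5. By CPM its siCIN85 libraries lay above those of siNeg, but CD68 did not pass the filter on low counts. Counts this low carry no comparison, and its part in the results was not tested. Of the endothelial markers, PECAM1 and VWF had at most 6 counts and CDH5 had 2 to 36. The epithelial markers EPCAM, CDH1 and KRT8 were detected in every library, at 12.8 to 81.3 CPM.

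RRAGD, which encodes RagD, was measured at 42.2, 27.2 and 46.0 CPM in siCIN85 and at 14.2, 16.6 and 19.0 CPM in siNeg. The 3 knockdown libraries all lay above the 9 others, in which RRAGD ranged from 14.2 to 23.8 CPM, and the second siCIN85 library was the nearest to them. The gene lies at chr6:89364636-89412270 on the minus strand, and its counts were low, 94 to 174 in siCIN85 and 57 to 73 in siNeg. The log2FC was 1.21 ± 0.20 (SE), a 2.32-fold difference, and 99 of the 12542 genes tested had a larger log2FC in this comparison. In replicate order, the ratio of siCIN85 to siNeg was 2.97, 1.64 and 2.42.

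In the cells carrying the CIN85 plasmid RRAGD stood at the level of their control. It was 20.3, 18.6 and 23.8 CPM in upCIN85 and 23.0, 23.3 and 18.2 CPM in Mock, so the groups overlapped. The log2FC was -0.04 with a 95% confidence interval of -0.44 to 0.36 (edgeR, adjusted P = 0.948). The difference between the control groups was -0.37 in siNeg versus Mock (95% confidence interval -0.79 to 0.05, adjusted P = 0.467). By mean level the groups were ordered siNeg at 16.6 ± 2.4, upCIN85 at 20.9 ± 2.6, Mock at 21.5 ± 2.8 and siCIN85 at 38.5 ± 9.9 CPM (SD, n = 3). Neighbours among the first 3 overlapped in their libraries.

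**Figure D1:**
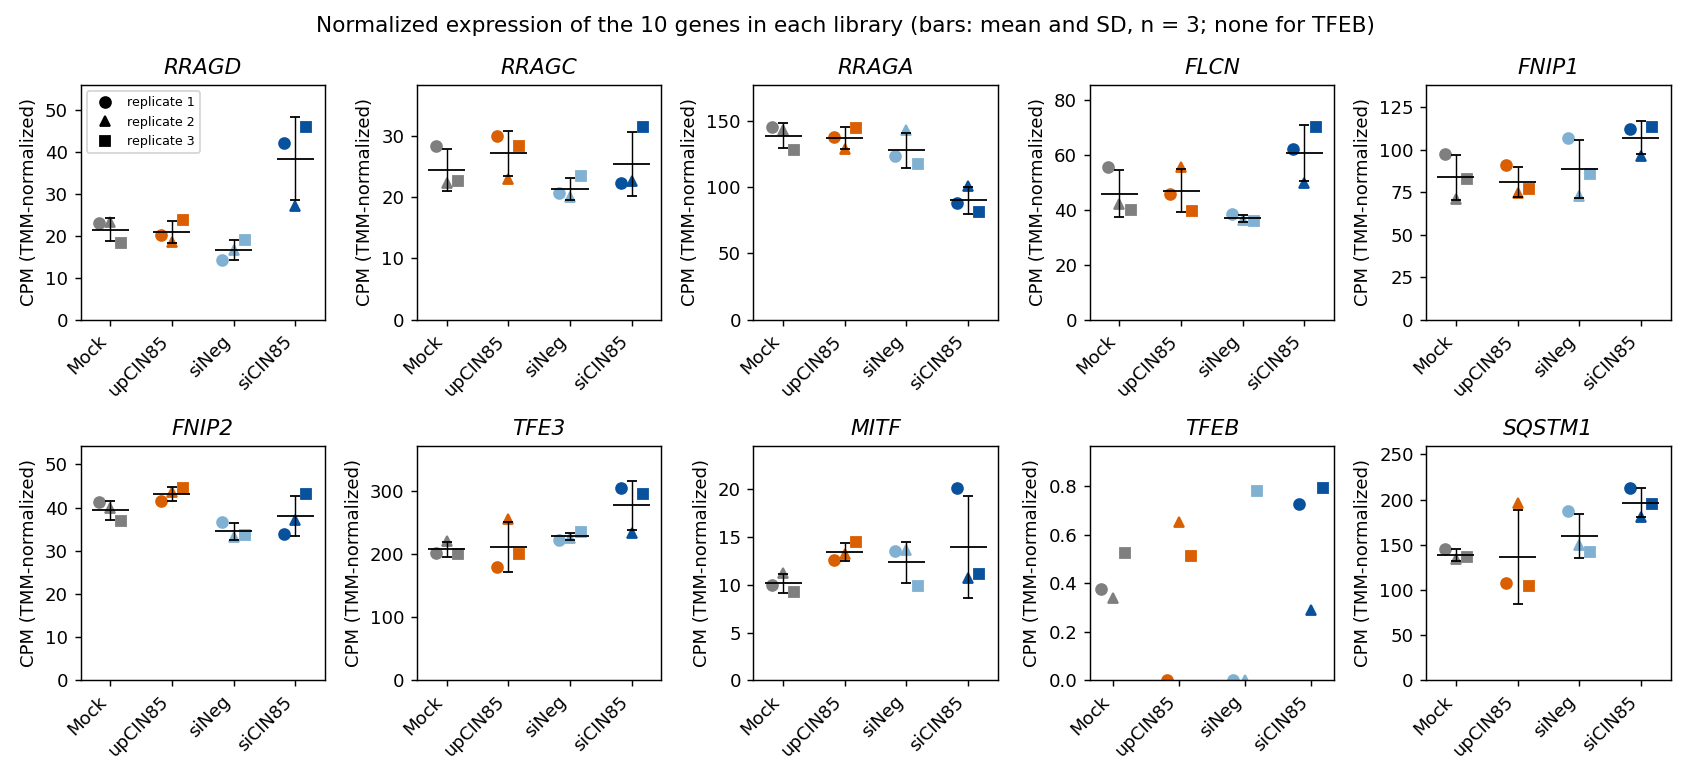
TMM-normalized CPM of each of the 10 genes, 1 panel per gene with its own linear axis from 0. Points are libraries, with the replicate number as the symbol, and bars give the mean and SD of 3 libraries (none for TFEB). RRAGD and FLCN were higher and RRAGA lower in all 3 siCIN85 libraries than in any siNeg library.

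RRAGC, which encodes the RagC alternative to RagD, did not share this pattern. It lies at chr1:38838198-38859823 on the minus strand. RRAGC was measured at 22.3, 22.6 and 31.4 CPM in siCIN85 and 20.7, 20.0 and 23.4 CPM in siNeg, with overlapping groups (log2FC 0.25 ± 0.18 SE). In upCIN85 versus Mock its log2FC was 0.15 (adjusted P = 0.726), and in siNeg versus Mock -0.19 (adjusted P = 0.695).

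RRAGA, which encodes the RagA partner, differed in the direction opposite to RRAGD. This gene at chr9:19049395-19050983 on the plus strand stood at 87.6, 101 and 80.8 CPM in siCIN85 and at 123, 143 and 117 CPM in siNeg. The groups did not overlap, the log2FC was -0.51 ± 0.11 (SE), and the same-numbered ratios were 0.711, 0.707 and 0.688. From the same libraries the study, which used DESeq2, listed RRAGA as lower in siCIN85. RRAGA ranged from 128 to 145 CPM over the 6 Mock and upCIN85 libraries (log2FC -0.02, adjusted P = 0.961), and the siNeg libraries overlapped with Mock (log2FC -0.12, adjusted P = 0.704). The close relative RRAGB was counted 4 to 24 times per library. Its log2FC in upCIN85 versus Mock was 0.67 (adjusted P = 0.375).

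FLCN encodes folliculin, the GTPase-activating protein for RagC and RagD. At chr17:17212212-17237188 on the minus strand, it was measured at 62.1, 49.7 and 70.0 CPM in siCIN85 and at 38.2, 36.2 and 35.9 CPM in siNeg. The groups did not overlap, and the log2FC was 0.72 ± 0.17 (SE), a 1.65-fold difference. Both upCIN85, at 45.8, 55.4 and 39.6 CPM, and Mock, at 55.5, 42.1 and 40.0 CPM, reached into the siCIN85 range (log2FC 0.04, adjusted P = 0.944). The siNeg libraries were all below Mock (log2FC -0.32, adjusted P = 0.448), so the knockdown was read against the lowest of the 4 group means. FLCN overlaps MPRIP on the opposite strand, and the strand setting of the counting is not given in the sources used here. MPRIP had a log2FC of 0.24 in siCIN85 versus siNeg (adjusted P = 0.252) and -0.32 in siNeg versus Mock (adjusted P = 0.186), and its part in the FLCN counts was not tested.

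FNIP1 and FNIP2, the partners of folliculin, had smaller fitted values, and their difference from FLCN was not tested. FNIP1, at chr5:131641714-131797063 on the minus strand, was measured at 112, 96.3 and 113 CPM in siCIN85 and 107, 73.1 and 85.7 CPM in siNeg (log2FC 0.28 ± 0.15 SE). Each siCIN85 library was above the siNeg library of the same number, but the groups overlapped. FNIP2, at chr4:158769138-158908049 on the plus strand, ranged from 34.0 to 43.0 CPM in siCIN85 and from 33.2 to 36.7 CPM in siNeg (log2FC 0.14 ± 0.13 SE). In upCIN85 FNIP2 stood at 41.4, 43.6 and 44.5 CPM against 41.2, 39.9 and 37.0 CPM in Mock, which did not overlap but by a small margin (log2FC 0.13, adjusted P = 0.664). For FNIP1 the log2FC in upCIN85 versus Mock was -0.05 (adjusted P = 0.912).

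Of the transcription factors, TFE3 and MITF were measurable and TFEB was not. TFEB, at chr6:41683978-41736259 on the minus strand, had 2, 2 and 3 counts in Mock, 0, 4 and 3 in upCIN85, 0, 0 and 3 in siNeg, and 3, 1 and 3 in siCIN85. It was the one gene of the 10 that did not pass the filter on low counts, and with 3 or fewer counts in 11 of the 12 libraries no fold change was computed. A difference in TFEB transcript was not detectable at this depth.

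TFE3 (chrX:49028726-49043486, minus strand) was measured at 305, 233 and 295 CPM in siCIN85 and 223, 227 and 235 CPM in siNeg. In libraries 1 and 3 of the knockdown TFE3 exceeded every other library of the series, while the second library lay within the siNeg range (log2FC 0.28 ± 0.13 SE). In upCIN85 TFE3 was 179, 256 and 201 CPM and in Mock 202, 221 and 200 CPM (log2FC 0.03, adjusted P = 0.944). MITF (chr3:69739435-69968337, plus strand) was low, with 37 to 85 counts per library. In upCIN85 all its libraries, at 12.6, 13.2 and 14.5 CPM, were above those of Mock, at 9.97, 11.2 and 9.30 CPM, yet the log2FC of 0.40 did not pass the test (95% confidence interval -0.07 to 0.87, adjusted P = 0.436). In siCIN85 MITF stood at 20.1, 10.7 and 11.1 CPM, so its log2FC of 0.19 ± 0.24 (SE) rested on the first library and was -0.18 without it.

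SQSTM1, which encodes the p62 receptor that carries ubiquitinated cargo to autophagosomes, lies at chr5:179806398-179838078 on the plus strand. It was measured at 213, 181 and 195 CPM in siCIN85 and 188, 150 and 142 CPM in siNeg (log2FC 0.30 ± 0.18 SE), with the first siNeg library inside the siCIN85 range. In upCIN85 the libraries were split, at 108, 197 and 105 CPM, around a narrow Mock group at 146, 134 and 136 CPM. The log2FC of -0.02 (adjusted P = 0.972) became -0.38 (adjusted P = 0.126) without the second upCIN85 library. The second upCIN85 library also held the highest TFE3 and FLCN levels of its group. SQSTM1 overlaps MGAT4B and MRNIP on the opposite strand, whose log2FC values in siCIN85 versus siNeg were 0.22 and 0.24, and their part in the SQSTM1 counts was not tested.

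Counted over the list, 2 of the 9 genes tested were called higher in siCIN85 versus siNeg (RRAGD and FLCN) at an adjusted P below 0.05 and 1 was called lower (RRAGA). Among all 12542 genes tested 1.04% were called, 0.590% higher and 0.454% lower. The libraries of 3 of the 10 genes did not overlap, against 20.2% of all genes tested. The median log2FC of the 9 genes was 0.28 and that of all genes -0.01, and 8 of the 9 had a positive sign. Because RRAGD was chosen from this comparison, these counts describe the list and are not evidence for it. The call of RRAGD was made in 15 of 19 alternative fits, that of RRAGA in 11 and that of FLCN in 10, and none of the 3 was called without siNeg replicate 1, siNeg replicate 2, siCIN85 replicate 1 or siCIN85 replicate 3. FLCN was also not called without siNeg replicate 3, Mock replicate 2, Mock replicate 3 or upCIN85 replicate 1, nor RRAGA without Mock replicate 1, Mock replicate 2 or upCIN85 replicate 1. Over these fits the sizes lay between 1.06 and 1.39 for RRAGD, 0.60 and 0.83 for FLCN, and -0.61 and -0.44 for RRAGA. The fits reuse the libraries from which RRAGD was chosen. They show how the calls depend on the processing and do not test them.

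**Figure D2:**
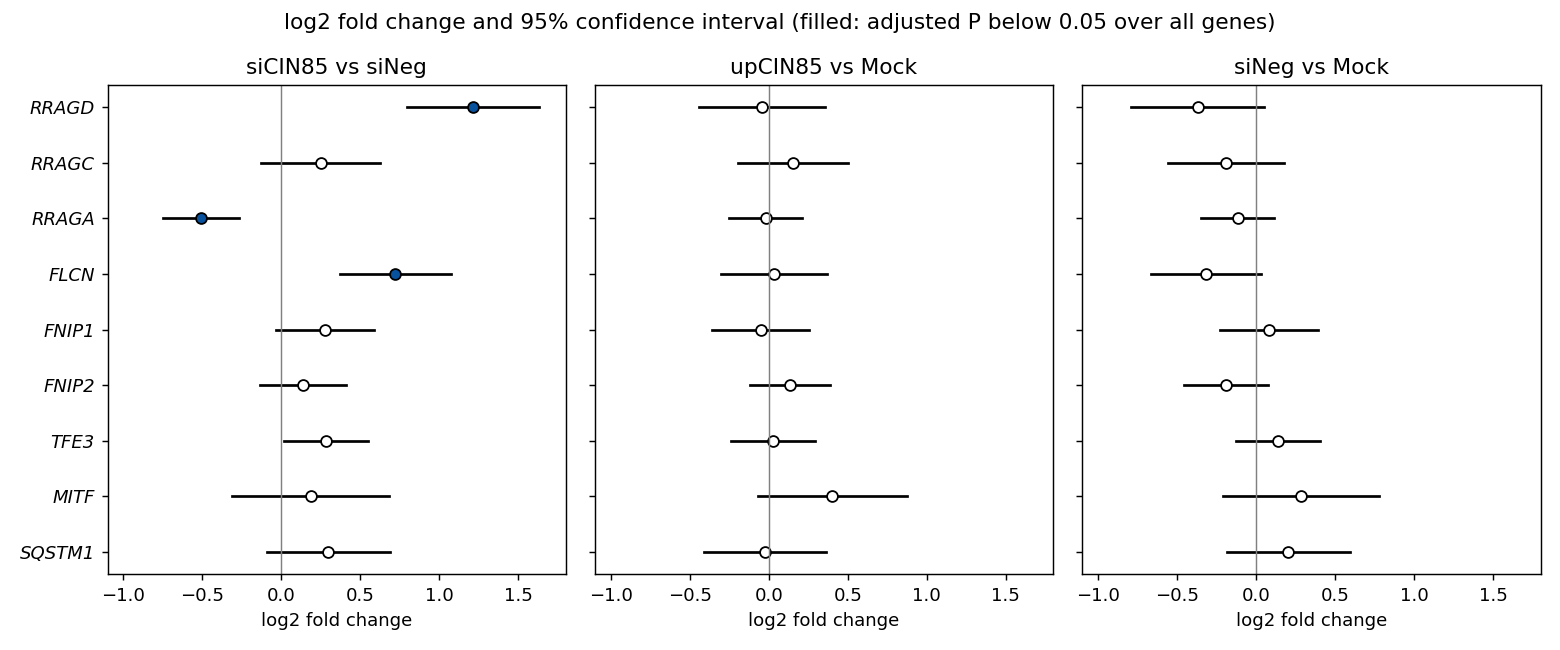
log2 fold change (points) and 95% confidence interval (lines) of the 9 genes tested, in siCIN85 versus siNeg, upCIN85 versus Mock and siNeg versus Mock. Filled points had an adjusted P below 0.05 over all genes. These were RRAGD, FLCN and RRAGA in the knockdown, and none in the other comparisons. RRAGD was chosen from the knockdown comparison, so filled points there are a description.

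In upCIN85 versus Mock, 0 of the 9 genes passed the edgeR test, where 1.23% of all genes did. None had an unadjusted P below 0.05, beside 14.5% of all genes, and 0 were called by DESeq2. The libraries of FNIP2 and MITF did not overlap, both higher in upCIN85, against 20.7% of all genes, and the log2FC values of the 9 ran from -0.05 to 0.40 with a median of 0.03. In siNeg versus Mock, which compares the controls of the 2 experiments, 0 of the 9 passed against 0.526% of all genes, with 0 at an unadjusted P below 0.05 and 0 by DESeq2. FLCN and FNIP2 were lower and TFE3 higher without overlap, where 19.4% of all genes did not overlap. This comparison differs in vector, siRNA and depth at once, and these cannot be told apart.

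The replicate numbers paired the knockdown libraries. Within pairs 6 of the 9 genes were higher in siCIN85 in all 3 pairs (RRAGD, FLCN, FNIP1, RRAGC, TFE3 and SQSTM1) and 1, RRAGA, was lower in all 3. The same count over all genes was not made. Some steps were small, with log2 ratios of 0.067 for FNIP1 in replicate 1 and 0.041 for TFE3 in replicate 2. Since RRAGD was chosen from this comparison, the numbers describe the list and are not evidence for it. When the knockdown was fitted in pairs (replicate block) the log2FC of RRAGD was 1.19, and 3 of the 9 genes were again called. That fit called 429 of all genes, against 131 in the unpaired fit. Among the siCIN85 libraries the second had the lowest level of 6 of the 9 genes, and of RRAGA the highest, so it lay nearest to siNeg for RRAGD, FLCN, TFE3 and RRAGA. Its depth was the lowest of the 12 libraries at 3540641 counts, its SH3KBP1 level of 8.97 CPM lay between those of the others, and the part of depth in these values was not tested.

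**Figure D3:**
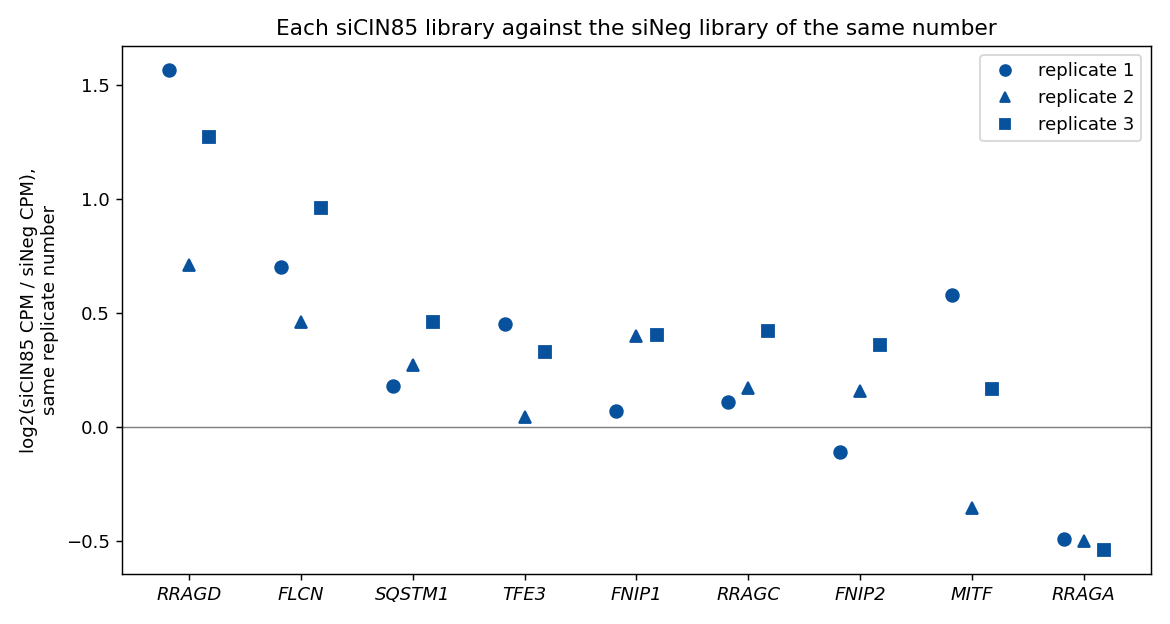
log2 ratio of the CPM of each siCIN85 library to the siNeg library with the same replicate number, for the 9 genes tested (points, 1 per pair, the symbol gives the number). RRAGD ratios lay between 0.71 and 1.57 and FLCN ratios between 0.46 and 0.96, while those of RRAGA lay between -0.54 and -0.49.

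Over the 12 libraries the genes with the log2 CPM most like that of RRAGD were ELK3 (Pearson's r = 0.94), RAB7A (0.94), HIC1 (0.93), EHD1 (0.93) and ZNF850 (0.92). RAB7A encodes the GTPase of late endosomes and lysosomes, EHD1 an ATPase of recycling endosomes, and ELK3, HIC1 and ZNF850 encode nuclear proteins. ELK3 was at 110 ± 17 CPM in siCIN85 and 71.0 ± 8.2 CPM in siNeg, and RAB7A at 411 ± 46 and 304.1 ± 4.3 CPM (SD, n = 3). Of the list, FLCN was the most like RRAGD (r = 0.80, with 81 genes higher), then TFE3 (0.65) and FNIP1 (0.54), and RRAGA ran opposite (r = -0.77). The 12 points share 4 group means, and siCIN85 carries most of the range, so these values describe the same contrast again.

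Around the 10 genes, 143 further genes of the pathway were in the table and 135 were tested, of which 2 (1.48%), both lower, were called in siCIN85 versus siNeg and 2 (1.48%) in upCIN85 versus Mock. With the replicate block in the knockdown the former count was 8, and the genes added by the block are not named here. A pathway gene said below not to pass in the knockdown did not pass the unpaired fit. The median log2FC of the 135 was 0.02 in the knockdown and 0.03 in upCIN85, beside -0.01 and 0.01 for all genes. In siNeg versus Mock 0 of 135 were called by edgeR, 22 (16.3%) had an unadjusted P below 0.05 (16 higher and 6 lower) beside 12.4% of all genes, and DESeq2 called 2.

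**Figure D4:**
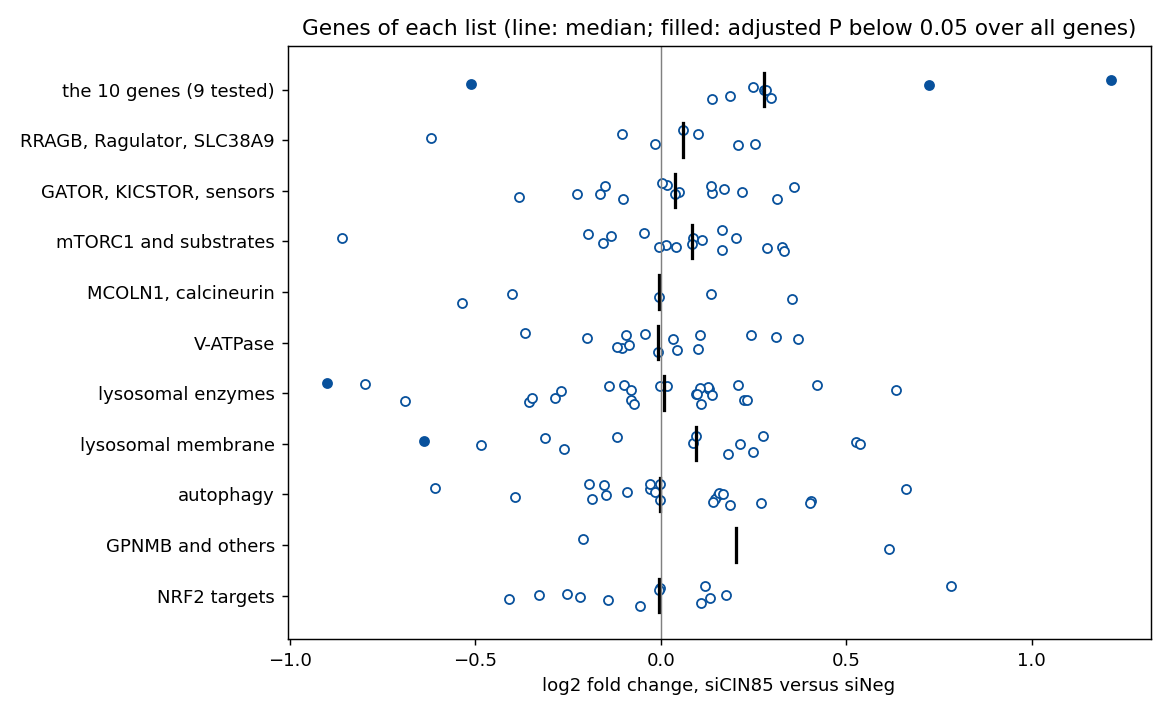
log2 fold change in siCIN85 versus siNeg of every tested gene, by list (points), with the median of each list (line); filled points had an adjusted P below 0.05 over all genes. The median of the 9 genes stood at 0.28, while those of the pathway lists with 5 or more tested genes lay between -0.01 and 0.09.

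Of the 26 lysosomal enzyme genes tested, 1 was called lower in the knockdown and 0 higher. LIPA, the acid lipase that hydrolyses cholesteryl esters, fell to 45.4, 66.2 and 46.5 CPM from 107, 100.2 and 87.0 CPM (log2FC -0.90 ± 0.16 SE, edgeR, adjusted P = 0.0144), and the groups did not overlap. NEU1, the lysosomal sialidase, had a log2FC of 0.63 and AGA, the aspartylglucosaminidase, one of -0.80. Neither passed by edgeR (adjusted P = 0.0862 and 0.0686). The study, which used DESeq2, listed AGA as lower in siCIN85.

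Among 13 lysosomal membrane and lipid transport genes, SCARB2, which encodes the receptor that delivers glucocerebrosidase to lysosomes, was lower in siCIN85. It stood at 35.0, 39.9 and 44.4 CPM against 69.5, 61.3 and 54.7 CPM in siNeg (log2FC -0.64 ± 0.13 SE, adjusted P = 0.0253). SCARB2 is also among the genes the study listed as lower in siCIN85. NPC2, a cholesterol carrier of the lysosome lumen, had a log2FC of 0.54 (adjusted P = 0.0755). The calls of LIPA and SCARB2 were made in 15 and 14 of 19 alternative fits, and neither was called without siNeg replicate 1, siNeg replicate 2, siCIN85 replicate 1 or siCIN85 replicate 3. In upCIN85 versus Mock the log2FC values were -0.05 for LIPA and -0.02 for SCARB2.

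Beyond folliculin, the lists of genes that set the position and nucleotide state of the Rag GTPases held no call in the knockdown, where 15.7% of all genes had an unadjusted P below 0.05. Of RRAGB, the 5 Ragulator genes and SLC38A9, 0 of 7 passed by edgeR, with 2 at an unadjusted P below 0.05: LAMTOR1, the lysosomal anchor of Ragulator, had a log2FC of 0.25 (adjusted P = 0.203) and LAMTOR3 one of -0.62 (adjusted P = 0.234). Of the GATOR, KICSTOR and amino acid sensor genes 0 of 15 passed, with 0 at an unadjusted P below 0.05 in the knockdown. SESN2, the leucine sensor, had a log2FC of 1.03 in upCIN85 versus Mock but missed the threshold, and its libraries overlapped (adjusted P = 0.0511). Of mTORC1, its regulators and substrates 0 of 17 passed in the knockdown, with 1 at an unadjusted P below 0.05, ATG13 (log2FC 0.33, adjusted P = 0.288). These are transcript levels, and mTORC1 activity was not measured in these libraries. The study reported from western blots of phosphorylated proteins that CIN85 raised mTOR and Akt activation in HOS cells. Inhibitors of Akt or mTOR lowered the motility of its overexpressing cells. From its RNA-seq it also reported an mTORC1 signaling gene set as upregulated in upCIN85. The same set was overrepresented among its differing genes in both experiments, and it was not examined here.

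Genes of the calcium branch, through which calcineurin dephosphorylates TFEB, likewise did not pass by edgeR in either comparison. PPP3CB, a catalytic subunit of calcineurin, had a log2FC of -0.54 in the knockdown (adjusted P = 0.0606). PPP3CA, another catalytic subunit, stood at 158 ± 25 CPM in siCIN85 and 208 ± 17 CPM in siNeg, and at 282 ± 29 CPM in upCIN85 and 211 ± 12 CPM in Mock (SD, n = 3). Its log2FC was -0.40 (adjusted P = 0.112) in the former and 0.42 (adjusted P = 0.0783) in the latter. The study, which used DESeq2, listed PPP3CA as higher in upCIN85 and PPP3CB as lower in siCIN85.

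The V-ATPase, the proton pump that acidifies lysosomes, had 0 of 15 subunit genes called in the knockdown and 1 lower in upCIN85. ATP6V0E1 fell to 143, 166 and 122 CPM in upCIN85 from 194, 222 and 234 CPM in Mock (log2FC -0.59 ± 0.12 SE, adjusted P = 0.0219), while its log2FC in the knockdown was 0.03. It was not called without Mock replicate 2, Mock replicate 3, upCIN85 replicate 1 or upCIN85 replicate 3. Autophagy genes had 0 of 22 called in both comparisons. OPTN, an autophagy receptor like SQSTM1, had a log2FC of -0.61 (adjusted P = 0.131) and WIPI1, a phosphoinositide-binding protein of forming autophagosomes, one of 0.66 (adjusted P = 0.143) in the knockdown.

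NRF2 target genes were listed because NRF2 also induces SQSTM1. Of 13 tested, FTH1, the ferritin heavy chain, rose in upCIN85 to 601, 572 and 695 CPM from 375, 308 and 338 CPM in Mock (log2FC 0.87 ± 0.13 SE, adjusted P = 0.00306), and it was called in 19 of 19 alternative fits. FTH1 has many near-identical processed copies in the genome, among which reads can be split, so its level is uncertain. FTH1 is also among the genes the study listed as higher in upCIN85. In siCIN85 its log2FC was -0.41 (adjusted P = 0.143), and HMOX1, heme oxygenase, had a log2FC of 0.78 (adjusted P = 0.149). Of the cell-type-restricted MiT/TFE targets GPNMB and CTSK, neither passed in the knockdown (log2FC -0.21 and 0.615, adjusted P = 0.736 and 0.532). Their log2FC values in upCIN85 versus Mock were 0.66 and 0.88 with unadjusted P = 0.0122 and 0.0497, and neither passed by edgeR (adjusted P = 0.181 and 0.344).

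The promoter letters were also counted over the pathway lists. Of the 143 genes 107 had a RefSeq window, and 20 of these (18.7%) held TCACGTG, against 4.49% of all genes with a window. In siCIN85 versus siNeg the 19 tested genes with these letters had a median log2FC of 0.13, with 14 positive and 5 negative, and 0 were called. The 82 without had a median of 0.01, with 41 positive and 41 negative, and 2 were called lower. In upCIN85 versus Mock the medians were -0.14 with the letters and 0.06 without. No test of the letters was made. The lists hold lysosomal and autophagy genes, which MiT/TFE factors are known to switch on. The higher share of TCACGTG therefore describes the choice of lists and is not a result of these libraries.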

How the data were processed

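RNA was measured in 12 libraries of HOS cells from 3′ tags, with a module for unique molecular identifiers (UMIs). Whole-number counts per Ensembl gene were deposited by the authors without normalization. The submitters' processing notes name FastQC, cutadapt 4.3, STAR 2.7.3a, Picard 2.25.6, MultiQC 1.10.1, featureCounts, Subread 2.0 and GRCh38. The strand setting and any collapsing of UMIs are not given in the sources used here, and counts that still hold copies of a molecule would understate the counting error. Groups and replicate numbers follow the labels.

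Gene symbols and positions were taken from GENCODE v29, in which 95 identifiers had no match, and 7 list symbols were not found in the table. In R 4.3.3, edgeR 4.0.16 was run on all 12 libraries: filterByExpr (minimum count 10, minimum total 15) kept 12542 genes, TMM factors were used, and a quasi-likelihood model with 1 mean per group was fitted with 8 residual degrees of freedom. Two-sided P-values were adjusted over all genes tested (Benjamini-Hochberg). The SE of a log2FC was taken as its size over the root of the F statistic. CPM values are TMM-normalized, and likeness to RRAGD used log2 CPM with a prior count of 2. The fits were tested on simulated data, in which DESeq2 made more false calls than edgeR in each comparison and more than its nominal share, and edgeR also ran slightly above its nominal share in upCIN85 vs Mock. The bound set for false calls by DESeq2 was widened after a simulation exceeded it, so its larger counts of calls are to be read with that. With 3 libraries a group the smallest P of an exact permutation test is 0.1.

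The 10 genes and the pathway and marker lists were chosen with earlier results of these data known, and 1 listed pathway gene is not reported here and is left out of the list counts. Genes named in the text are all 10, SH3KBP1, list genes past the threshold in upCIN85 versus Mock or siCIN85 versus siNeg (up to 12 per comparison by P), up to 2 genes of lowest P from a list with none, and the 5 genes most like RRAGD. RRAGB, NEU1, AGA, NPC2 and the markers were named outside this rule after their values were seen. No library pair agreed within sampling noise. The replicate numbers were taken to pair siNeg with siCIN85, because deviations from the group means correlated at 0.35, 0.27 and 0.45 in the same-numbered pairs. The main fit did not use this pairing, so the adjusted P-values printed for the knockdown are those of the unpaired fit. Alternatives were the 6 libraries of a comparison alone, RLE size factors of edgeR, no filter, at least 10 counts in every library, replicate blocks, DESeq2 1.42.0 and each library left out.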

Additional observations from a re-analysis of the deposited data

Results flagged for a closer look

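The genes screened here were the 10 described above, SH3KBP1 and those of the pathway and marker lists. For 6 of them the log2FC in upCIN85 versus Mock differed from that in siCIN85 versus siNeg by a test of the difference itself in the edgeR model. The share of all genes past the threshold in this test is not given here. For SH3KBP1 the difference was 3.58 (adjusted P = 1.65e-06). For RRAGD it was -1.25 ± 0.27 (SE), with log2FC values of -0.04 and 1.21, and since RRAGD was chosen from the knockdown this is a description. FTH1 differed by 1.28 (adjusted P = 0.00338), COL1A2 by 2.61 (0.0151), COL1A1 by 1.27 (0.0381) and PPP3CA by 0.82 (0.0288). COL1A1 and COL1A2 had been listed as markers of the osteosarcoma cells, and COL1A2 stood at 145 ± 76 CPM in upCIN85, 57 ± 24 in Mock, 49.9 ± 3.5 in siNeg and 20.7 ± 2.5 in siCIN85 (SD, n = 3). Groups of 3 libraries were not tested for single outlying libraries.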

How the results depend on the processing

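The number of the 9 genes called in siCIN85 versus siNeg was 3, it was 1 (RRAGD) with only the 6 libraries of the comparison, and it ran from 0 to 3 with each library left out. The log2FC of RRAGD then ran from 1.06 to 1.39, that of FLCN from 0.60 to 0.83 and that of RRAGA from -0.61 to -0.44. RRAGD was chosen from this comparison, so these counts and sizes are a description. In upCIN85 versus Mock and siNeg versus Mock 0 of the 9 genes were called in every alternative.

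Pathway genes called in upCIN85 versus Mock were 2, and 8 with no filter, 12 with the replicate block in both experiments, 6 with the block in the knockdown only, 6 with DESeq2, and 1 to 3 with each library left out. In siCIN85 versus siNeg they were 2, and 1 with 6 libraries, 12 with no filter, 14 and 8 with the blocks, 7 with DESeq2, and 0 to 5 with each library left out. In siNeg versus Mock they were 0, and 4 with no filter and 2 with DESeq2. All genes called in upCIN85 versus Mock were 154, and 281 with 6 libraries, 637 with no filter, 1035 and 545 with the blocks, 300 with DESeq2, and 25 (without upCIN85 replicate 3) to 260 (without upCIN85 replicate 2). In siCIN85 versus siNeg they were 131, and 50 with 6 libraries, 617 with no filter, 968 and 429 with the blocks, 298 with DESeq2, and 9 to 362 with each library left out, the extremes being siCIN85 replicates 1 and 2. In siNeg versus Mock they were 66, and 376 with no filter, 184 with DESeq2, and 7 to 134 with each library left out. The cause of these shifts was not tested.

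In Mock and upCIN85 same-numbered deviations correlated at 0.33, 0.23 and 0.10, and the third was just under 0.1, so the numbers were not taken as pairs there, although every library correlated best with its own number. The replicate block ended no call of the 9 genes.

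With each library left out, some log2FC values near 0 changed sign. In upCIN85 versus Mock the ranges were -0.072 to 0.025 for RRAGA, -0.15 to 0.038 for RRAGD, -0.10 to 0.19 for FLCN, -0.16 to 0.070 for FNIP1, -0.13 to 0.13 for TFE3, -0.38 to 0.13 for SQSTM1, -0.011 to 0.15 for SH3KBP1, -0.16 to 0.098 for LIPA and -0.062 to 0.0039 for SCARB2. In siCIN85 versus siNeg they were -0.18 to 0.33 for MITF and -0.011 to 0.090 for ATP6V0E1, and in siNeg versus Mock -0.078 to 0.21 for FNIP1 and -0.17 to 0.0076 for SCARB2. None of these values passed the test. Counts below about 10 per library, as for TFEB, carry no comparison.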
